A study of Mus musculus with 12 samples.

Results

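The comparison described here is that of auxin-treated with untreated cardiac precursors of the MTF2-AID line, the cells in which the Polycomb protein MTF2 can be degraded on demand. It rests on 4 of the 12 RNA-seq libraries of the study, 2 untreated and 2 given auxin. Genes were kept where at least 2 of these 4 libraries reached 1 TPM (a transcript level scaled for transcript length and library size), which held for 14183 of the 35856 genes in the table. All libraries came from C57BL/6 mouse embryonic stem cells that spent 48 h as embryoid bodies, were reaggregated and cultured for 43 h, and then kept 32 h as a monolayer, the stage labelled cardiac precursor. Both MTF2-AID groups had the genotype "MTF2-AID, Tir1", in which MTF2 carries an auxin-inducible degron and the plant receptor Tir1 directs tagged protein to the proteasome. The treated group received indole-3-acetic acid (auxin) at 50 µM, and the untreated group received none. The labels do not say when auxin was added or for how long. The other lines, SUZ12-AID and AID-JARID2, also carried Tir1 and were sampled in the same way, with 2 untreated and 2 auxin libraries each. Each subunit was represented by 1 tagged line and no untagged line was given auxin, so effects of auxin itself and of the line cannot be told apart from those of MTF2 loss. The series calls its replicates biological, but nothing says that they came from separate differentiations, so p-values here cover no more than the library-to-library spread, which may be technical.

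Polycomb repressive complex 2 (PRC2) places the repressive H3K27me3 mark on developmental genes through a core made of SUZ12, EED, an EZH1 or EZH2 methyltransferase and an RBBP4 or RBBP7 histone-binding protein. The core exists in alternative forms. PRC2.1 holds MTF2, PHF1 or PHF19, which bring the complex to unmethylated CpG-rich DNA, together with EPOP or PALI1, whereas PRC2.2 holds JARID2 and AEBP2. The comparison addresses what the transcriptome of cardiac precursors looks like when MTF2 alone is targeted.

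The MTF2-AID libraries held 10138920 and 10802754 reads untreated and 11895061 and 12314241 reads with auxin, recovered from the TPM values, within a range of 10138920 to 17173072 over all 12. Replicates of MTF2-AID differed by a median of 0.0973 (absolute log2 difference) in the untreated and 0.0844 in the auxin group, against 0.0837 to 0.0914 in AID-JARID2 and 0.137 to 0.194 in SUZ12-AID. Several markers of early heart and mesoderm were present. Hand1, a transcription factor of early heart and lateral mesoderm, stood at 1369.7 and 1352 TPM untreated, and Bmp4, a mesoderm-inducing ligand, at 237 and 233 TPM. The cardiac regulators Gata4 and Isl1 stood at 66.4 and 66.9 TPM and 32.4 and 28.1 TPM, and cardiac troponin T, Tnnt2, at 115 and 94.3 TPM. Tbx5 and Tbx18, factors of later heart cells, stayed under the 1 TPM minimum in each of the 4 libraries. So did 8 of 26 listed cardiac contractile genes, among them Myl2, Myl3, Ttn and Nppa. Transcripts of other lineages were present too, with untreated sums of 433 and 425 TPM over 22 endothelial genes and 104 and 91.3 TPM over 15 blood genes. The 14 trophoblast genes kept summed to 2990 and 3127 TPM untreated, against 2195 and 2173 TPM over 22 cardiac regulators. The defining trophoblast genes Elf5, Gcm1, Tpbpa and Prl3d1 did not reach the minimum and are not in that sum.

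Few genes passed the test for an auxin effect in MTF2-AID cells, and most of those moved only modestly. The immunoproteasome gene Psmb8, the simple-epithelial keratins Krt8 and Krt19 and the growth factor Fgf8 rose, while the integrin Itga2b, the adhesion molecule Icam2 and the cell-cycle inhibitor Cdkn1a fell. The 14183 genes had a median absolute log2 difference of 0.094 between auxin and untreated means. Single libraries of 1 group differed by 0.0844 to 0.0973. Means of 2 libraries vary less than single libraries, so these values do not show that the auxin difference equals replicate spread. In 88.8% of genes the difference was under 1.25-fold and in 96.2% under 1.5-fold, and 149 genes (1.05%) reached 2-fold, against 4.70% in SUZ12-AID and 9.69% in AID-JARID2. Of those 149 genes, 76 averaged 5 TPM or more in whichever group was higher. All differences given below are auxin minus untreated on the log2(TPM + 1) scale, which understates changes of low genes.

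At an adjusted p under 0.05 (limma over all 12 libraries, Benjamini-Hochberg over 14183 genes), 11 genes (0.0776%) rose and 4 (0.0282%) fell in MTF2-AID. In SUZ12-AID the same test called 2071 genes (14.6%) higher and 626 (4.41%) lower, and in AID-JARID2 2717 (19.2%) and 2623 (18.5%). Before adjustment, 636 genes were higher and 770 lower at a p under 0.05. The MTF2-AID calls depended on single libraries. Without auxin library 1 there were 3 genes higher and 1 lower, without auxin library 2 there were 3 and 3, without untreated library 1 there were 6 and 1, and without untreated library 2 there were 14 and 1. Between 3 and 7 of the 15 calls were among them. Libraries of the other lines, which share the estimate of the spread, moved the counts too: without either untreated SUZ12-AID library there were 20 and 29, without either auxin SUZ12-AID library 16 and 8, without either untreated AID-JARID2 library 5 and 2, and without either auxin AID-JARID2 library 7 and 4. Rescaling the libraries changed the balance of directions, from 11 higher and 4 lower to 10 and 9 (median-of-ratios) and 17 and 27 (quantile normalization), or from 73.3% of calls higher to 52.6% and 38.6%.

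**Figure D1:**
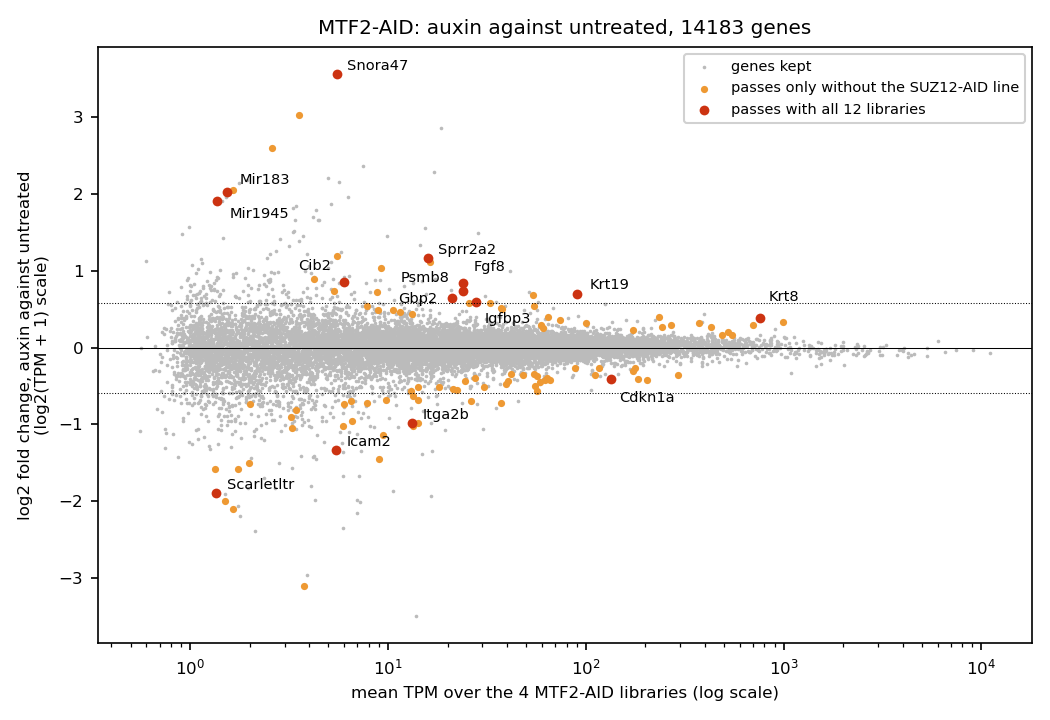
Each point is 1 of 14183 genes, with its mean level over the 4 MTF2-AID libraries on the horizontal axis (TPM, log scale) and the auxin-minus-untreated difference on the vertical axis (log2 scale). Most points lie near 0 and the spread widens toward low levels; the 15 genes that passed the test over all 12 libraries are red, and those that passed only without the SUZ12-AID line are orange.

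Groups that did not overlap, with both auxin libraries above or both below both untreated ones, were found for 6729 genes (47.4%), 3597 with auxin above (25.4%) and 3132 with auxin below (22.1%). When a size of at least 1.25-fold was also required, 532 genes (3.75%) remained above and 777 (5.48%) below. At 1.5-fold these counts were 165 (1.16%) and 302 (2.13%). The other lines had 48.5% (SUZ12-AID) and 74.5% (AID-JARID2) of genes with groups that did not overlap. How tightly a gene could be called unchanged followed its level. The 95% interval of the difference lay within 1.5-fold in either direction (0.585 on the log2 scale) for 10788 genes (76.1%) and within 1.25-fold for 5260 (37.1%). For genes under 5 TPM the 1.5-fold share was 34.2%, from 5 to 20 TPM 73.5%, from 20 to 100 TPM 95.2% and at 100 TPM or more 98.7%.

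Genes of antigen processing and interferon response were among those that rose. Psmb8 (chr17:34197721-34201454, plus strand, mm10), a catalytic subunit of the immunoproteasome that cuts peptides for MHC class I, had 17.7 and 17.8 TPM untreated and 30.1 and 30.6 TPM with auxin. Replicates differed by under 1 TPM and the groups stood far apart. The mean TPM was 1.71-fold higher, with a log2 difference of 0.74 (SE 0.0732, adjusted p = 0.00402). Gbp2 (chr3:142620602-142638008, plus strand), an interferon-inducible guanylate-binding GTPase, had 16.4 and 16.2 TPM untreated and 24.9 and 27.1 TPM with auxin. Both auxin values lay above both untreated ones, at a log2 difference of 0.64 (SE 0.0912, adjusted p = 0.0404). Psmb8 passed in 20 of 24 alternative settings (adjusted p 0.000855 to 0.0644) and lost its call without either auxin library (adjusted p = 0.0644 and 0.0624). Gbp2 passed in 12 of 24 (0.00408 to 0.246) and lost its call without any 1 of the 4 MTF2-AID libraries (adjusted p 0.115 to 0.246) or any 1 of the 4 AID-JARID2 libraries (0.0711 to 0.0859).

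Simple-epithelial keratins, which form the intermediate filaments of early epithelia and trophoblast, rose as well. Krt8 (chr15:101996698-102004482, minus strand) went from 650.5 and 664 TPM to 859 and 864 TPM, a log2 difference of 0.39 (SE 0.0416, adjusted p = 0.00641). This was the 1 gene whose increase passed the test at under 1.5-fold, with close replicates and groups that did not overlap. Krt19 (chr11:100140810-100148665, minus strand) went from 70.1 and 66.5 TPM to 112 and 111 TPM, a log2 difference of 0.70 (SE 0.104, adjusted p = 0.0426). Krt18, the filament partner of Krt8, stood at 627 and 631 TPM untreated and 762 and 785 TPM with auxin and missed the threshold (log2 difference 0.30, adjusted p = 0.0884). Krt7 was low, at 2.86 and 3.02 TPM and 9.24 and 6.87 TPM, and did not pass either (adjusted p = 0.0712). Each of these 4 keratins had both auxin libraries above both untreated ones. The call of Krt8 was lost without auxin library 1, auxin library 2 or untreated library 1 (adjusted p = 0.0774, 0.0795 and 0.0795), and that of Krt19 without any 1 MTF2-AID library (0.148 to 0.239) or either untreated AID-JARID2 library (0.0859 and 0.0858).

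The remaining increases were in genes of unrelated roles. Fgf8 (chr19:45736798-45742915, minus strand), a ligand made in the primitive streak and in heart progenitors, had 19.3 and 14.8 TPM untreated and 30.8 and 31.3 TPM with auxin. The untreated replicates lay further apart than the auxin ones and both below them, at a log2 difference of 0.84 (SE 0.123, adjusted p = 0.0426). Igfbp3 (chr11:7206086-7213923, minus strand), which binds insulin-like growth factors, went from 20.3 and 23.8 TPM to 33.8 and 33.6 TPM (log2 difference 0.59, SE 0.0884, adjusted p = 0.0426). Cib2 (chr9:54544794-54560218, minus strand), a calcium- and integrin-binding protein, went from 3.76 and 4.23 TPM to 8.32 and 7.68 TPM (log2 difference 0.85, SE 0.113, adjusted p = 0.0284). In each of these genes the auxin replicates lay close together, and above both untreated ones. Sprr2a2 (chr3:92215920-92256724, plus strand), a small proline-rich protein of the epidermal envelope, had 7.6 and 11.5 TPM untreated and 21.6 and 23 TPM with auxin (log2 difference 1.17, SE 0.156, adjusted p = 0.0284). Its near-identical neighbour Sprr2a3 had 10.6 and 9.28 TPM and 21.6 and 23.6 TPM and an adjusted p of 0.0679, so the split of reads between both copies is uncertain. Fgf8 lost its call without either auxin library or untreated library 2 (adjusted p 0.128 to 0.242), Igfbp3 without either auxin library or untreated library 1 (0.19 to 0.239), Sprr2a2 without the same 3 (0.0795 to 0.206) and Cib2 without any 1 of the 4 (0.0678 to 0.185). Leaving out single libraries of the other lines also ended the calls of Fgf8 and Cib2 (any AID-JARID2 library), Igfbp3 (any AID-JARID2 or auxin SUZ12-AID library) and Sprr2a2 (either untreated AID-JARID2 library), with adjusted p-values of 0.0602 to 0.0945.

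**Figure D2:**
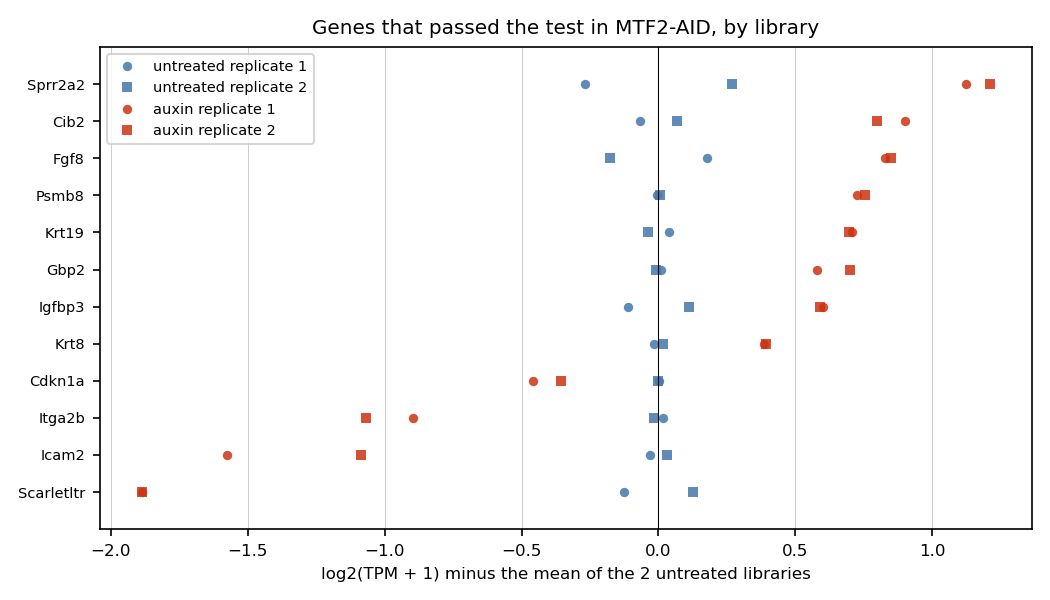
Level in each of the 4 MTF2-AID libraries, as log2(TPM + 1) minus the mean of the 2 untreated libraries, for the 12 genes that passed the test and are not short RNAs; each point is 1 library, untreated (blue) or auxin (red). In each gene both auxin points lie on the same side of both untreated points, with Sprr2a2 (log2 difference 1.17) furthest to the right and Icam2 (-1.33) and the sparse Scarletltr furthest to the left.

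Surface proteins of blood progenitors and endothelium, and a cell-cycle inhibitor, fell. Itga2b (chr11:102453297-102470122, minus strand), the integrin subunit CD41 of megakaryocytes and of the first blood progenitors, had 18.2 and 17.7 TPM untreated and 9.17 and 8.04 TPM with auxin. Both auxin libraries stood near 50% of the untreated level, and Itga2b fell by 0.98 on the log2 scale (SE 0.115, adjusted p = 0.0115). Icam2 (chr11:106377656-106388075, minus strand), an adhesion molecule of endothelial and blood cells, went from 8.01 and 8.38 TPM to 2.09 and 3.33 TPM and fell by 1.33 (SE 0.197, adjusted p = 0.0426). Cdkn1a (chr17:29090976-29100727, plus strand), the p53-induced inhibitor p21 of cyclin-dependent kinases, went from 153 and 153 TPM to 111 and 119 TPM. It was the 1 decrease of under 1.5-fold to pass, with untreated replicates that agreed to 3 digits (log2 difference -0.41, SE 0.0554, adjusted p = 0.0291). Each of the 3 lost its call without any 1 of the 4 MTF2-AID libraries, with adjusted p-values of 0.0646 to 0.128 for Itga2b, 0.0675 to 0.222 for Icam2 and 0.0795 to 0.185 for Cdkn1a. Icam2 and Cdkn1a also lost it without any 1 AID-JARID2 library (0.0683 to 0.0878). Over all alternative settings Itga2b passed in 18 of 24, Icam2 in 11 of 24 and Cdkn1a in 12 of 24. The remaining 4 calls, named after their values were seen, rested on few reads: Scarletltr had 7 reads untreated and 0 with auxin, and the short RNAs Snora47, Mir183 and Mir1945 had 0 reads each untreated and 13, 2 and 2 with auxin. A count of 0 leaves room for up to 3 reads, and polyadenylated libraries do not measure short RNAs well.

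The promoter of Itga2b is shown because blood and endothelial promoters are known for paired GGAAG motifs of ETS factors and GATAAG motifs of GATA factors. The window is the 250 bases before the RefSeq start (GRCm38.p6, chr11:102469884-102470133, minus strand, written 5′ to 3′), with GGAAG on either strand in capitals. Most of it lies inside the gene position given above, which is from GENCODE and begins further upstream.
Itga2b: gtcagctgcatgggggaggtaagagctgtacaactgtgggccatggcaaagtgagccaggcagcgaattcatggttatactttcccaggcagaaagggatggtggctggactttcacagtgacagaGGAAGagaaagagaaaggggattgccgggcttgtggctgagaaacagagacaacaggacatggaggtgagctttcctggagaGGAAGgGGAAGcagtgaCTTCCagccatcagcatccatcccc
It held 4 GGAAG matches and 0 GATAAG matches, and GGAAG occurred in 68.1% of the promoters of all genes kept. A match is a run of letters and not a measured binding site.

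Endothelial genes were lower with auxin across nearly the whole list, although none passed limma on log2 TPM over all 12 libraries by itself. Without the SUZ12-AID line, 6 passed as lower in limma. Of the 22 of 23 listed genes that were kept, 19 had both auxin libraries below both untreated ones and 0 the reverse, against 22.1% and 25.4% of all genes. The filter kept 1 of the 22 through the untreated group alone, so that gene was bound to count as below. At an unadjusted p under 0.05, 18 of the 22 were lower and 0 higher (770 and 636 of all 14183 genes). With limma voom on the recovered reads, an alternative added after the data were seen, 4 (Cdh5, Tie1, Tek and Eng) passed as lower. The median log2 difference of the list was -0.69, against 0.013 over all genes. It was -0.70 to -0.67 under both rescalings, but -0.43 with a pseudocount of 5. The list's summed level was 433 and 425 TPM untreated and 309.7 and 297 TPM with auxin. Emcn, the endomucin gene, stayed under the minimum, at 0 to 0.682 TPM. In these bulk samples, fewer endothelial cells and less of this RNA per cell cannot be told apart.

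The largest difference in this list was that of Sox18, an endothelial transcription factor, with 14.6 and 12.7 TPM untreated and 4.73 and 4.01 TPM with auxin (log2 difference -1.45, 95% interval -2.04 to -0.86, adjusted p = 0.0719). The junction cadherin Cdh5 had 12.5 and 14.4 TPM and 5.52 and 5.55 TPM (log2 difference -1.14, interval -1.63 to -0.64). Both genes stood below 50% of their untreated level. Rasip1, a regulator of vessel lumen formation that is not on the list, had 18.9 and 17.7 TPM untreated and 8.54 and 8.5 TPM with auxin, with an adjusted p of 0.055. The angiopoietin receptor Tek had 4.54 and 4.53 TPM and 2.04 and 1.87 TPM, and its relative Tie1 had 8.12 and 8.53 TPM and 3.78 and 3.4 TPM (adjusted p = 0.0679 for either). Groups did not overlap in any of these 3 genes and replicates were close. The ETS factors Erg, Fli1 and Etv2, which drive the endothelial programme, were at 4.06 and 3.41, 6.1 and 4.39 and 10.7 and 11.8 TPM untreated and 1.55 and 1.37, 2.37 and 1.82 and 6.45 and 8.32 TPM with auxin. Each was lower in both auxin libraries, and none passed (adjusted p = 0.0995, 0.103 and 0.174).

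The most abundant endothelial transcripts had smaller differences. Egfl7, a secreted vessel factor, had 119 and 119.6 TPM untreated and 94.9 and 93.4 TPM with auxin, and the interval of its log2 difference of -0.34 lay within 1.5-fold (-0.53 to -0.15). Kdr, the VEGF receptor that also marks uncommitted mesoderm, had 68.9 and 71.4 TPM and 58.3 and 59.2 TPM (log2 difference -0.25). The adhesion molecule Pecam1 had 57.3 and 54.5 TPM and 49.3 and 43.7 TPM (log2 difference -0.26, within 1.5-fold). All 3 were lower in both auxin libraries. Flt1, Ecscr and Sox17 were the 3 kept members whose groups overlapped. The co-receptor Eng had 34.1 and 30.9 TPM and 21.7 and 17.9 TPM, and the adrenomedullin receptor partner Ramp2, which is not on the list, 44.5 and 48.4 TPM and 30.6 and 25 TPM, with adjusted p-values of 0.0679 and 0.0712.

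Blood genes were mostly low, and most stood lower with auxin. Of 15 of 21 listed genes kept, 12 had groups that did not overlap with auxin below and 2 with auxin above, against 22.1% and 25.4% of all genes. That count includes 4 genes that reached 1 TPM in untreated libraries alone (Hba-x, Gata1, Gfi1b and Nfe2), which the filter kept through the group where they were high. The median log2 difference was -0.86, and it was -0.32 with a pseudocount of 5 and -0.29 with at least 5 TPM in 2 libraries. The list's sum was 104 and 91.3 TPM untreated and 66.6 and 57.2 TPM with auxin. The embryonic globins Hbb-bh1 and Hba-x had 5.78 and 3.54 TPM and 2.51 and 1.2 TPM untreated and 1.43 and 0 TPM and 0.364 and 0 TPM with auxin. Gata1, the erythroid and megakaryocyte master regulator, had 2.75 and 1.94 TPM and 0.624 and 0.199 TPM (adjusted p = 0.0679), and its partner Gfi1b 1.8 and 2.37 TPM and 0.961 and 0.46 TPM (adjusted p = 0.319). Gata2 and Lmo2, shared by blood, endothelium and mesoderm, stood at 11.2 and 11.1 and 20.2 and 17.6 TPM untreated and at 10.2 and 9.3 and 15.2 and 13.1 TPM with auxin. Epor and Cd44 were the 2 members with auxin above, at 6.67 and 7.43 and 8.28 and 8.59 TPM untreated and 7.54 and 7.44 and 9.02 and 10.5 TPM with auxin. Ptprc, the pan-leukocyte antigen CD45, was at 0 in each of the 4 libraries, and Klf1, Spi1, Hbb-y and Hbb-bt did not reach the minimum. The part of blood and endothelial cell numbers in the decreases of Itga2b and Icam2 was not tested.

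Gfi1b is shown as a promoter of this list with a GATAAG motif, in capitals, in the 250 bases before its RefSeq start (GRCm38.p6, chr2:28621983-28622232, minus strand, written 5′ to 3′).
Gfi1b: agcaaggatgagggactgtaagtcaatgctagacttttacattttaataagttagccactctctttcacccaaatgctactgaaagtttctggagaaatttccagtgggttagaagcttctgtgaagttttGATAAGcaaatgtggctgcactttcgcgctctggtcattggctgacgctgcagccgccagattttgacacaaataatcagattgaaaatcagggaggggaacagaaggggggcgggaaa
Of the 12 blood genes with a promoter entry, 5 (41.7%) held GATAAG on either strand, against 4.21% of 10284 promoters of all genes kept. The 5 were Gfi1b, Hba-a1, Hba-a2, Cd44 and Epor. Hba-a1 and Hba-a2 are near-identical copies, and Cd44 and Epor were not lower with auxin.

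**Figure D3:**
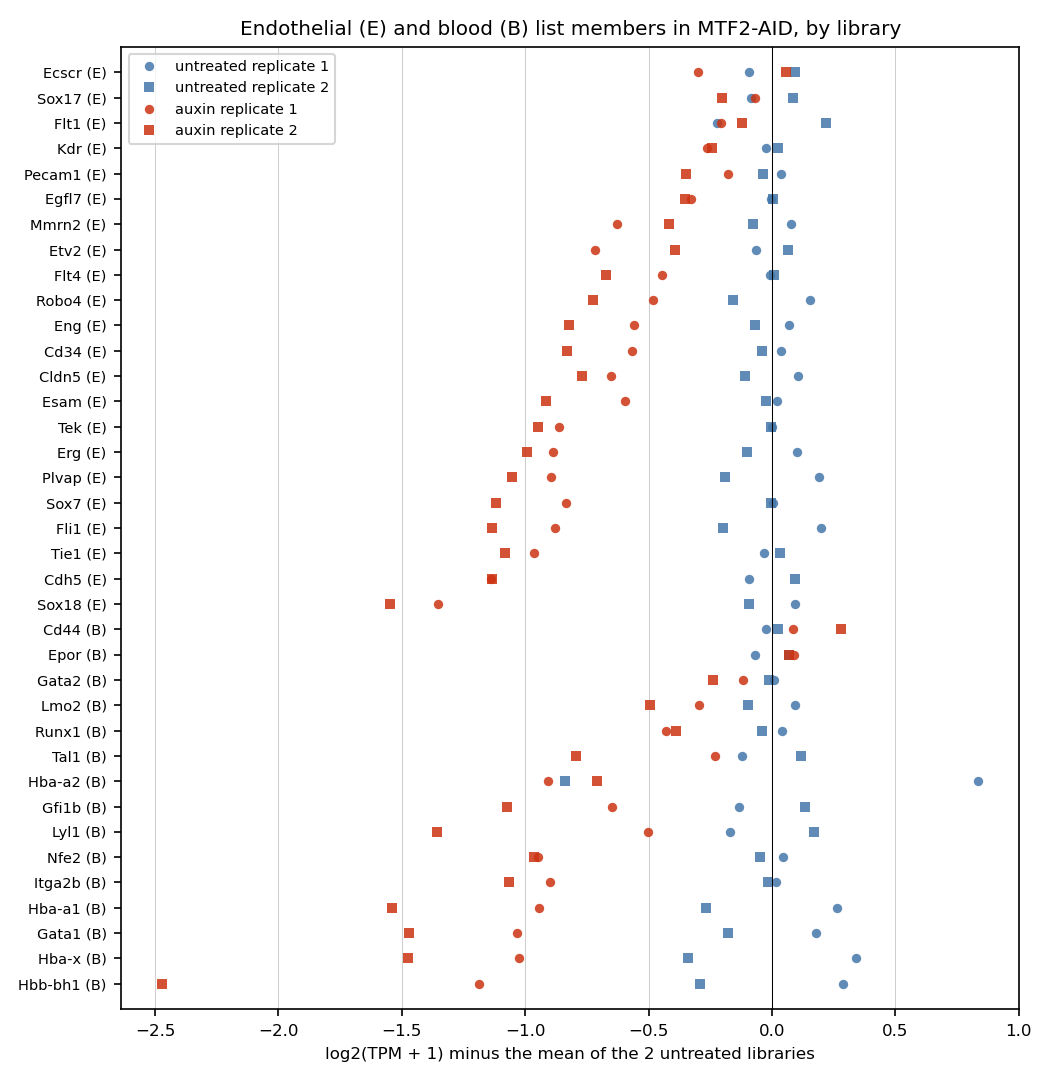
Auxin and untreated levels of the 22 endothelial and 15 blood genes that were kept, 1 row per gene, with 1 point per MTF2-AID library, as log2(TPM + 1) minus the mean of the 2 untreated libraries. Auxin points lie left of both untreated points in 19 endothelial and 12 blood rows, with Sox18 among the widest gaps and Egfl7 and Kdr among the narrowest.

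Targets of p53 were slightly lower. Of 19 of 19 genes, 16 had both auxin libraries below both untreated ones and 0 the reverse, against 22.1% and 25.4% of all genes, at a median log2 difference of -0.20 (-0.21 to -0.21 under both rescalings). Cdkn1a was the 1 member that passed, and 15 of the 19 intervals, that of Cdkn1a included, lay within 1.5-fold. Phlda3, an inhibitor of AKT signalling, had 195 and 189 TPM untreated and 151 and 159 TPM with auxin (log2 difference -0.31, adjusted p = 0.0524). The antiproliferative Btg2 had 70.9 and 65.5 TPM and 45.8 and 45.3 TPM (log2 difference -0.57, adjusted p = 0.0679), and the proapoptotic Bbc3, which encodes PUMA, 49.9 and 44.4 TPM and 34.9 and 35.1 TPM (log2 difference -0.42, adjusted p = 0.0912). Untreated and auxin values of these 3 genes did not overlap, and none passed. Mdm2, the p53 ubiquitin ligase, moved less, from 48.4 and 43.1 TPM to 39.96 and 39.2 TPM (log2 difference -0.20). Bax, Sesn1 and Sesn2 had overlapping groups and intervals within 1.5-fold.

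Beyond Psmb8, 8 of 12 of 17 listed genes of MHC class I and interferon response, Psmb8 included, had both auxin libraries above both untreated ones, 1 had them below (25.4% and 22.1% of all genes), and the median was 0.38. The class I heavy chain H2-K1 had 21.6 and 19.3 TPM untreated and 30.8 and 31.6 TPM with auxin (log2 difference 0.59, adjusted p = 0.0524), and H2-D1 32.1 and 31.5 TPM and 40.7 and 43.4 TPM (log2 difference 0.39, adjusted p = 0.194). Psmb9 and Psmb10, the other inducible proteasome subunits, stood at 3.8 and 4.98 and 36.9 and 43.6 TPM untreated and 7.22 and 6.12 and 52.1 and 61.8 TPM with auxin. These 4 genes were higher in both auxin libraries and missed the threshold. Irf1, a transcription factor that activates class I and proteasome genes, had 21.3 and 22.8 TPM and 33.7 and 33.8 TPM (log2 difference 0.59, adjusted p = 0.0679). Some other members did not follow. B2m, the class I light chain, had 44.3 and 53.6 TPM and 48.7 and 60.3 TPM with overlapping groups, and the peptide transporter Tap1 was lower, from 24.2 and 22.6 TPM to 17.9 and 21.9 TPM. The interferon-induced Ifit1, Ifit3 and Irf7 stayed under 0.5 TPM in each library.

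The Irf1 promoter is shown for its TTCNNNGAA motif, a palindrome known from interferon-responsive promoters, in capitals in the 250 bases before the RefSeq start (GRCm38.p6, chr11:53769764-53770013, plus strand, written 5′ to 3′).
Irf1: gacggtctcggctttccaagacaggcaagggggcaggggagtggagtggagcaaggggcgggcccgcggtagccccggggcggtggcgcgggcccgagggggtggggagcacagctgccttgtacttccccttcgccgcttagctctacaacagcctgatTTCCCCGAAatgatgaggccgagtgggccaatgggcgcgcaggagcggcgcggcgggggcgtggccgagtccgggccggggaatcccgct
Of 10 genes of this list with a promoter entry, 3 (30%) held TTCNNNGAA, namely Irf1, Psmb8 and Bst2, against 5.72% of all promoters. Bst2, an interferon-induced membrane protein gene that holds these letters, had overlapping groups.

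Primitive streak genes leaned upward with Fgf8. Of 19 of 23 listed genes, 10 had auxin above and 1 below without overlap (25.4% and 22.1% of all genes), at a median log2 difference of 0.28, or 0.14 with a pseudocount of 5. The filter kept 1 of the 19 through the auxin group alone, so that gene was bound to count as above. T, the Brachyury factor of nascent mesoderm, had 32.2 and 28.5 TPM untreated and 43.7 and 44 TPM with auxin (log2 difference 0.52, adjusted p = 0.0806), and the T-box factor Eomes 10.6 and 11.5 TPM and 15.5 and 15.3 TPM (log2 difference 0.44, adjusted p = 0.231). Mixl1 and Gsc, homeobox factors of the streak, stood at 9.17 and 9.41 and 16.9 and 19 TPM untreated and 13 and 11.4 and 22 and 21.9 TPM with auxin. These 4 genes had groups that did not overlap, and none passed. Wnt3, the ligand that starts the streak, had overlapping values of 39.5 and 37 TPM and 40.8 and 39.3 TPM. The caudal factor Cdx2 was level, at 427 and 439 TPM and 425 and 425 TPM (log2 difference -0.026, interval -0.28 to 0.23).

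The keratins did not stand for a shift of all epithelial genes. Of 20 of 23 surface ectoderm and epithelial genes, 10 had auxin above and 7 below without overlap (25.4% and 22.1% of all genes), and the median was 0.086. The list's sum was 1833 and 1786 TPM untreated and 2159 and 2165 TPM with auxin, mostly Krt8 and Krt18. Tight-junction claudins lay on the other side: Cldn4 had 137 and 117 TPM untreated and 93.1 and 79.4 TPM with auxin (log2 difference -0.55, adjusted p = 0.0884), and Cldn3 14.4 and 10.4 TPM and 7.97 and 8.29 TPM. Anxa1, an annexin, was at 7.04 and 6.36 TPM and 2.51 and 3.45 TPM (log2 difference -0.96, adjusted p = 0.225). The adhesion genes Cdh1 and Epcam, at 31.5 and 28.5 and 29.7 and 31.6 TPM untreated and 32.4 and 32 and 35.7 and 36.4 TPM with auxin, had intervals within 1.5-fold. Among 14 of 20 trophoblast genes, 8 were above and 3 below, and 1 of the 8 was kept through the auxin group alone. The list's sums were 2990.0 and 3127 TPM untreated and 3377 and 3336 TPM with auxin. This lineage also expresses Krt8 and Krt18. Its X-linked homeobox genes Rhox6 and Rhox9 were higher in both auxin libraries without passing, at 2.91 and 2.77 and 3.71 and 2.17 TPM untreated and 8.85 and 5.33 and 7.69 and 7.12 TPM with auxin (adjusted p = 0.373 and 0.131). The defining trophoblast genes Elf5, Gcm1, Tpbpa and Prl3d1 stayed under the minimum, and the part of such cells in the keratin increases was not tested.

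Glycolysis and proliferation genes stood slightly higher with auxin in both replicates, by medians of a few percent. Of 23 of 24 glycolysis and hypoxia genes, 14 had auxin above and 3 below without overlap, against 25.4% and 22.1% of all genes, at a median of 0.11, and 18 intervals lay within 1.5-fold. The glucose transporter Slc2a1 had 861 and 901 TPM untreated and 1125 and 1088 TPM with auxin (log2 difference 0.33, adjusted p = 0.0912), and Slc2a3 193 and 211 TPM and 263 and 268 TPM (adjusted p = 0.229). Glycolytic enzymes moved less: Ldha, lactate dehydrogenase, had 1036 and 1122 TPM and 1150.5 and 1211 TPM, Pgk1 258 and 258 TPM and 289 and 287 TPM, and Gapdh 813 and 810.4 TPM and 815 and 846 TPM. Of these 5 genes Gapdh had the smallest difference, 0.032. None of the list passed in limma over all 12 libraries, and 3 passed as higher in limma without the SUZ12-AID line. At an unadjusted p under 0.05, 8 of the 23 were higher and 0 lower (636 and 770 of all 14183 genes). In voom 1, Slc2a1, passed (adjusted p = 0.0483). Of 22 of 22 replication and mitosis genes, 14 were above and 2 below without overlap, at a median of 0.073, and all 22 intervals lay within 1.5-fold. That median was 0.050 to 0.064 under both rescalings, and the replicate SD of the list's median level was 0.0545. At an unadjusted p under 0.05, 1 of the 22 was higher and 0 lower. None passed in limma over all 12 libraries or in voom.

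Notch and germline genes lay the other way. Of 16 of 18 Notch pathway genes, 1 was above and 10 below without overlap (25.4% and 22.1% of all genes), at a median of -0.16, or -0.086 with at least 5 TPM in 2 libraries. The furthest below were 2 Notch genes used by endothelium, which were under 1 TPM in both auxin libraries and so were kept through the untreated group where they were high. The ligand Dll4 stood at 2.48 and 1.94 TPM and 0.507 and 0.971 TPM and the receptor Notch4 at 2.19 and 2.29 TPM and 0.903 and 0.894 TPM, while the broad receptor Notch1 had 47.7 and 48.6 TPM and 41 and 36.9 TPM. Of 12 of 24 germline genes kept, 0 were above and 8 below without overlap, at sums of 64.4 and 65.4 TPM untreated and 55.4 and 52.1 TPM with auxin. Their median of -0.25 was -0.11 with a pseudocount of 5 and -0.052 with at least 5 TPM in 2 libraries. The germ-cell factor Nanos3 (2.24 and 2.34 TPM and 0.777 and 0.93 TPM) was likewise kept through the untreated group alone.

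The subunits of PRC2 itself did not pass in either direction in limma on log2 TPM or in voom, and 1, Rbbp7, was higher at an unadjusted p under 0.05 (393 and 420.2 TPM untreated and 463 and 465 TPM with auxin). Mtf2 RNA had 22.4 and 21.7 TPM untreated and 26 and 24.7 TPM with auxin (log2 difference 0.19, interval -0.044 to 0.43, adjusted p = 0.616) and passed in 0 of 24 alternatives. The degron acts on the protein, so this RNA level does not measure depletion. All 6 core subunit genes had intervals within 1.5-fold. The methyltransferase Ezh2 had 113 and 117 TPM and 113 and 119 TPM, and Suz12 60.9 and 63 TPM and 59.99 and 60.7 TPM. The groups of Ezh2 overlapped, and those of Suz12 were separated by under 1 TPM. Of the other PRC2.1 members, the MTF2 paralogue Phf1 had 24.1 and 24.4 TPM and 21 and 22 TPM, and Lcor, the PALI1 gene, 5.53 and 5.77 TPM and 5.29 and 5.4 TPM. Epop, listed as E130012A19Rik, a synonym in RefSeq, had 141 and 142 TPM untreated and 144 and 157 TPM with auxin, a log2 difference of 0.09. The third paralogue, Phf19, was low, at 1.83 and 2.05 TPM and 2.84 and 2.66 TPM, with an interval that reached past 1.5-fold (-0.053 to 0.76). The PRC2.2 genes Jarid2 (33.5 and 34.7 TPM and 31.8 and 31.4 TPM) and Aebp2 (18 and 19.3 TPM and 18.8 and 17.9 TPM) had intervals within 1.5-fold. So did 22 of 24 genes of PRC1, the Polycomb complex that reads H3K27me3.

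Hox genes, classical Polycomb targets, and other homeobox factors both had more members above than below without overlap. Hox genes with an unadjusted p under 0.05 in limma were split between the directions. Of 22 of 39 Hox genes kept, which set position along the body axis, 11 had auxin above and 5 below without overlap (25.4% and 22.1% of all genes). The filter kept 1 of the 22 through the auxin group alone, so that gene was bound to count as above. Of these 22, 8 had intervals within 1.5-fold. None passed in limma over all 12 libraries or in voom, and 1 passed as lower in limma without the SUZ12-AID line. At an unadjusted p under 0.05, 4 of the 22 were higher and 4 lower (636 and 770 of all 14183 genes). The median of 0.13 ranged from -0.012 to 0.20 over the alternatives. Hoxb1, an early anterior gene, had 8.97 and 11.2 TPM untreated and 5.4 and 5.93 TPM with auxin (log2 difference -0.73, adjusted p = 0.0842), and the posterior Hoxc13 4.45 and 4.14 TPM and 2.25 and 1.98 TPM (log2 difference -0.77, adjusted p = 0.0875). On the other side, Hoxd8 had 4.9 and 4.77 TPM and 7.09 and 8.05 TPM and Hoxd4 8.95 and 10.6 TPM and 13.7 and 15 TPM. Groups did not overlap in these 4 genes. The more abundant Hoxb2 (31.1 and 30.4 TPM and 35.9 and 38.1 TPM) and Hoxd9 (19.07 and 21 TPM and 22.4 and 24.7 TPM) differed by less than 1.5-fold with intervals within it. Of 52 of 91 other homeobox and paired-box factors, 24 had auxin above and 9 below without overlap, and 22 had intervals within 1.5-fold. None passed in limma on log2 TPM or in voom. At an unadjusted p under 0.05, 16 of the 52 were higher and 3 lower (636 and 770 of all 14183 genes). The median log2 difference of this list was 0.11 (0.076 to 0.16 over the alternatives). The replicate SD of the list's median level, pooled over both groups, was 0.27 and so larger than that difference. The summed level of these factors was 1306 and 1323 TPM untreated and 1377 and 1408 TPM with auxin. The filter kept 6 of them through the auxin group alone and 1 through the untreated group alone. The craniofacial and limb factor Msx2 had 69.5 and 71.2 TPM and 92.3 and 91.7 TPM, higher in both auxin libraries (adjusted p = 0.131).

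Cdkn2a, the Ink4a/Arf inhibitor gene often used as a Polycomb readout, had 12.4 and 12.2 TPM and 10.2 and 7.74 TPM (log2 difference -0.43, unadjusted interval -0.82 to -0.038). It did not pass in limma over all 12 libraries (adjusted p = 0.4465) and passed in 0 of 24 alternatives. Its neighbour Cdkn2b had overlapping values of 4.7 and 3.27 TPM and 3.93 and 2.41 TPM.

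Cardiac regulators had intervals within 1.5-fold about as often as all genes, and contractile genes less often. Of 22 of 24 cardiac regulators kept, 16 (72.7%) had such intervals, a share near the 76.1% of all genes. The 1 that passed was Fgf8. Hand1 had 1369.7 and 1352 TPM untreated and 1397 and 1372 TPM with auxin (log2 difference 0.025, interval -0.14 to 0.19), Gata4 66.4 and 66.9 TPM and 65 and 61.7 TPM, and Isl1 32.4 and 28.1 TPM and 31.6 and 32.5 TPM. Nkx2-5, a homeobox factor of committed heart cells, had overlapping values of 6.5 and 5.06 TPM and 4.88 and 6.02 TPM (log2 difference -0.07, interval -0.51 to 0.37). Hand2 and Tbx3 were the members besides Fgf8 with the largest upward differences, at 54.7 and 53.5 and 47.9 and 51 TPM untreated and 66 and 75.5 and 61.6 and 63.7 TPM with auxin, without passing (adjusted p = 0.204 and 0.465). Of 18 of 26 contractile genes, 7 (38.9%) had intervals within 1.5-fold, so most were not shown to be level. Of the list 0 passed in limma over all 12 libraries or in voom. At an unadjusted p under 0.05, 1 of the 18 was higher (636 of all 14183 genes). Without the SUZ12-AID line, 1 contractile gene passed as higher in limma. Tnnt2 had overlapping values of 115 and 94.3 TPM and 107 and 111 TPM, and the tropomyosin Tpm1 478 and 490.5 TPM and 562 and 558 TPM without overlap (log2 difference 0.21, adjusted p = 0.0912). The imprinted H19 and Igf2 had intervals within 1.5-fold, at 5892 and 5809 and 1448 and 1378 TPM untreated and 6184 and 6243 and 1428 and 1385 TPM with auxin. So did the pluripotency factors Pou5f1 (107 and 109 TPM and 116 and 113 TPM) and Sox2 (7.35 and 6.996 TPM and 7.63 and 6.45 TPM). All 22 cholesterol synthesis genes and all 20 housekeeping genes had intervals within 1.5-fold, as did 10 of 11 BMP target genes. Among imprinted genes 25 of 34 did (73.5%), a share near the 76.1% of all genes. The BMP target genes leaned upward within that bound. Of the 11, 6 had auxin above and 0 below without overlap (25.4% and 22.1% of all genes). Their median log2 difference was 0.099 (0.067 to 0.16 over the alternatives), and none passed in limma over all 12 libraries.

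**Figure D4:**
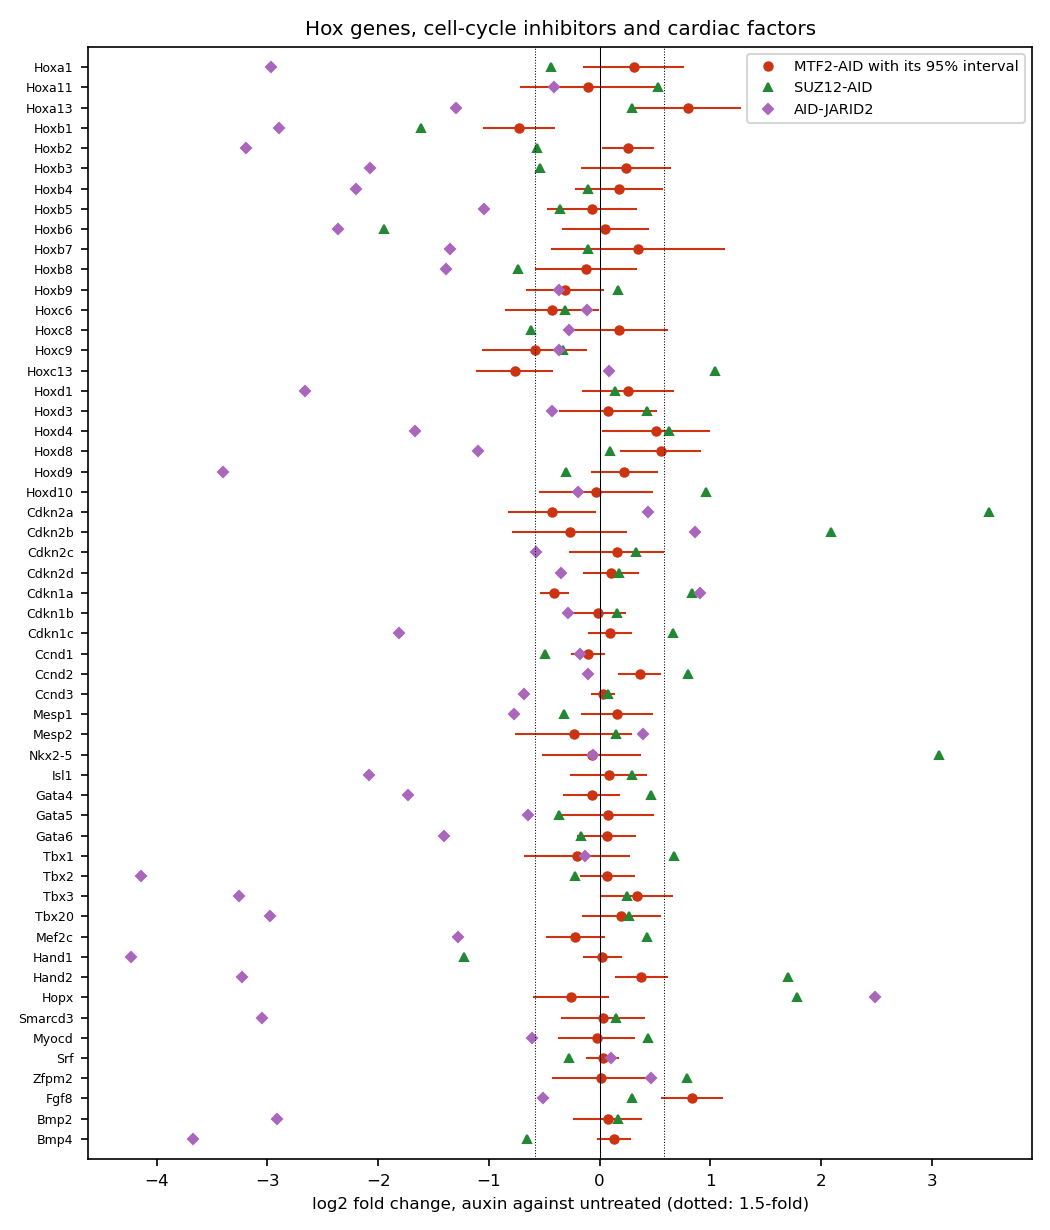
Auxin-minus-untreated differences (log2 scale) of Hox genes, INK4 and CIP inhibitors and D cyclins, and cardiac regulators. Bars are 95% intervals of the MTF2-AID line, small markers give the point estimates of SUZ12-AID and AID-JARID2, and dotted lines mark 1.5-fold; MTF2-AID points sit near 0 (Hand1 0.025, Nkx2-5 -0.07) where AID-JARID2 reaches -4.23 for Hand1 and SUZ12-AID 3.06 for Nkx2-5.

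The MTF2-AID response was compared with that of each other line by a test of the difference between auxin effects, each line having its own untreated libraries. The effect was higher in MTF2-AID than in SUZ12-AID for 312 genes (2.2%) and lower for 1306 (9.21%). Against AID-JARID2 it was higher for 1820 (12.8%) and lower for 1777 (12.5%). Rescaling moved the first pair to 742 and 1241 (median-of-ratios) and 584 and 1018 (quantile). Without SUZ12-AID untreated library 1 the higher count was 1105. It was 126, 147 and 151 without MTF2-AID auxin library 2, auxin library 1 and untreated library 1, and 168 without SUZ12-AID auxin library 2. The lower count was 813 and 858 without MTF2-AID auxin library 2 and untreated library 1, and 761 without SUZ12-AID auxin library 2.

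Endothelial genes differed between the lines. In SUZ12-AID 17 of the 22 were called higher and 1 lower (14.6% and 4.41% of all genes), at a median of 1.01. The difference from MTF2-AID passed in 18 genes as lower in MTF2-AID and in 1 as higher (9.21% and 2.2% of all genes). Against AID-JARID2, whose median was 0.021, the difference passed as lower in 11 and higher in 2 (12.5% and 12.8% of all genes). Sox18 had a log2 difference of -1.45 in MTF2-AID and 2.00 in SUZ12-AID, a gap of -3.45 (adjusted p = 0.00053). Icam2 had -1.33 against 2.01 (gap -3.34, adjusted p = 0.000167), and Itga2b -0.98 against 0.35 (gap -1.33, adjusted p = 0.000834). In SUZ12-AID the increases of Sox18 and Icam2 passed (adjusted p = 0.000649 and 0.000139), and the difference of Itga2b did not (adjusted p = 0.059).

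The p53 list also ran in opposite directions. In MTF2-AID its median was -0.20. In SUZ12-AID it was 0.66 with 16 of 19 genes called higher (14.6% of all genes), and in AID-JARID2 0.82 with 16 called higher (19.2% of all genes). The difference passed as lower in MTF2-AID for 15 genes against SUZ12-AID and for 16 against AID-JARID2 (9.21% and 12.5% of all genes). For Cdkn1a the log2 difference was -0.41 in MTF2-AID, 0.83 in SUZ12-AID and 0.91 in AID-JARID2, with gaps of -1.24 and -1.32 (adjusted p = 0.000102 and 1.22e-06). MHC class I and interferon genes were higher in MTF2-AID (0.38) and SUZ12-AID (0.85) by their medians and not in AID-JARID2 (-0.22). The difference from AID-JARID2 passed as higher for 6 of 12 (12.8% of all genes), among them Psmb8 (gap 1.49, adjusted p = 3.62e-06). Psmb8 did not pass against SUZ12-AID (gap -0.12, adjusted p = 0.567).

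Cardiac and Hox genes separated MTF2-AID from AID-JARID2. Cardiac regulators had a median of -1.34 in AID-JARID2. The difference passed as higher in MTF2-AID for 14 of 22 (12.8% of all genes), with a gap of 4.26 for Hand1 (adjusted p = 6.54e-09). Hox genes had -1.32 there, and 14 of 22 differed in the same direction. Against SUZ12-AID the cardiac list differed in 2 genes as higher and 4 as lower (2.2% and 9.21% of all genes). Nkx2-5 was among the latter (gap -3.13, adjusted p = 0.000219). Cdkn2a had -0.43 in MTF2-AID and 3.52 in SUZ12-AID, a gap of -3.95 (adjusted p = 0.000102). Of the genes that rose in MTF2-AID, Cib2 had nearly the same difference in all lines, 0.85, 0.77 in SUZ12-AID and 0.83 in AID-JARID2, with gaps of 0.082 and 0.021 (SE 0.16 and 0.16).

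**Figure D5:**
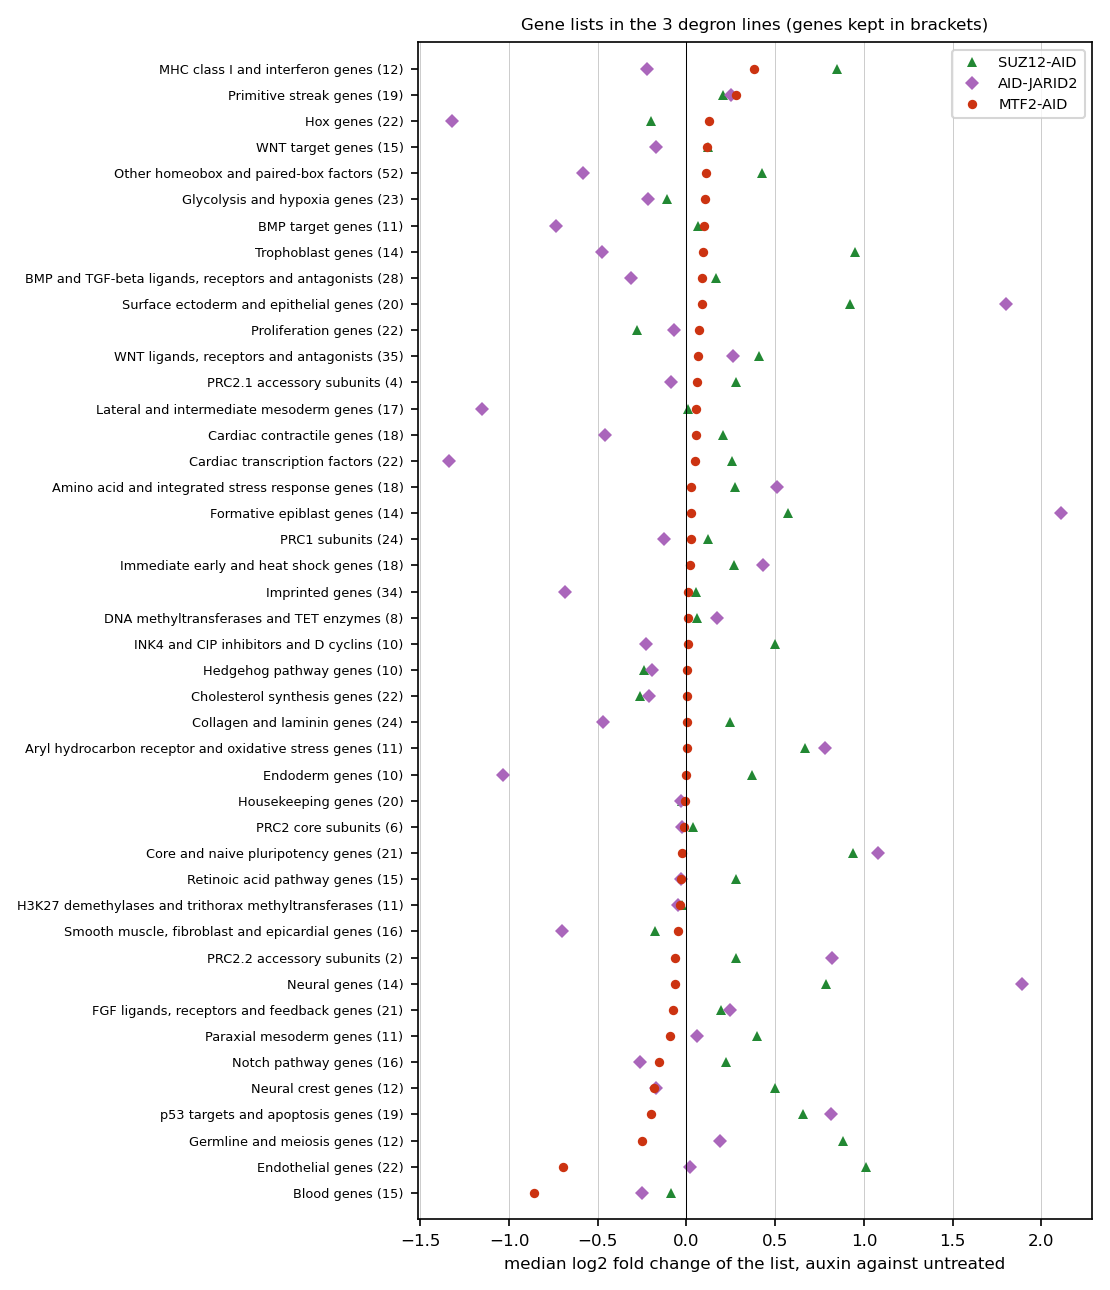
Median auxin-minus-untreated log2 difference of each of the 44 gene lists in the 3 lines, 1 row per list and 1 marker per line. MTF2-AID markers lie close to 0 in most rows, with blood (-0.86) and endothelial genes (-0.69) furthest below and MHC class I and interferon genes (0.38) furthest above, while the other lines spread more widely.

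The replicate spread of the SUZ12-AID line enters the test, and a fit without that line, chosen in part because of earlier results on these data, called 104 genes (0.733%), 48 higher (0.338%) and 56 lower (0.395%), all 15 calls of the 12-library fit among them. Of the 104, 55 were under 1.5-fold, 10 were short RNAs and 6 had placeholder symbols. Several genes described above passed there. From the endothelial list these were Sox18 (adjusted p = 0.0271), Cdh5 (0.0404), Tie1 (0.0321), Eng (0.0421), Flt4 (0.0423) and Tek (0.0423), and outside it Ramp2 (0.0411) and Rasip1 (0.00919). Btg2 (0.00925) and Phlda3 (0.0271) of the p53 list, and Aplnr, the apelin receptor of mesoderm and vessels, passed as lower. Aplnr had 46.2 and 45.8 TPM untreated and 33 and 32.6 TPM with auxin, and its adjusted p went from 0.0847 to 0.0271. Passing as higher were Irf1 (0.00877), H2-K1 (0.0206), T (0.0151), Eomes (0.0271), Krt18 (0.0363), Krt7 (0.0345) and Slc2a1 (0.0234). So did Col1a1, a fibrillar collagen (24.7 and 27.4 TPM and 40.1 and 38.5 TPM, 0.0271), the WNT-inactivating enzyme Notum (3.65 and 3.9 TPM and 6.68 and 7.19 TPM, 0.0377) and the BMP antagonist Nog (9.57 and 9.48 TPM and 13.7 and 13.4 TPM, 0.0413). Of the 53 lower genes that were not short RNAs, 37 were called higher in SUZ12-AID and 24 in AID-JARID2, against 14.6% and 19.2% of all genes. Of the 41 higher ones, SUZ12-AID called 19 higher and 5 lower, and AID-JARID2 12 higher and 19 lower, against 4.41% (SUZ12-AID) and 18.5% (AID-JARID2) of all genes called lower.

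Limma voom on the recovered reads, which weights genes by their counts, called 4 genes higher and 10 lower, and shared 3 genes, Itga2b, Krt8 and Sprr2a2, with the test on log2 TPM. Its decreases were Itga2b (adjusted p = 0.00534), the endothelial genes Cdh5, Tie1, Tek and Eng, the vessel regulator Rasip1, and Afap1l1, Cpeb1, Arap3 and Chst2 (adjusted p = 0.0313 to 0.0468 for the last 9). Chst2, a carbohydrate sulfotransferase, had 27.5 and 25.9 TPM untreated and 18.5 and 17.2 TPM with auxin. It was lower with auxin in all 3 lines, with log2 differences of -0.55 in MTF2-AID, -0.76 in SUZ12-AID and -0.53 in AID-JARID2. Its increases were Krt8, Sprr2a2, Slc2a1 and Col1a1 (adjusted p = 0.0188 to 0.0483).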

How the data were processed

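Polyadenylated RNA of 12 libraries (6 groups of 2) was sequenced from stranded libraries. The authors deposited 1 table of TPM values, with 35856 genes and a column per library. Per the submitters' processing notes, reads were aligned with STAR 2.6.1d to mm10. Which quantifier and annotation were used is not given in the sources used here. Columns were matched to samples by line, treatment and replicate number in their names.

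Values of each library were whole multiples of 1 read per gene length (100% within 0.001 read), which gave the reads quoted. These reads entered only voom and the read minimum, since the deposited unit is TPM. Using log2(TPM + 1) as response and the 6 groups as means, limma 3.58.1 (R 4.3.3; eBayes trend on; 6 residual and 4.3 prior degrees of freedom) tested each difference two-sided over all 12 libraries, with Benjamini-Hochberg adjustment over 14183 genes and a threshold of 0.05. The script was tested on simulated data. Intervals are 95% limma intervals. Lists (44) are described by counts and medians. Members and lists were chosen with earlier results of these data known. Same-numbered replicates were not taken as pairs.

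Named genes were PRC2 subunits; the 15 largest increases and decreases among calls without overlap that averaged 5 TPM or more in one group; up to 8 calls per direction under 1.5-fold; up to 4 called and 2 within-bound members per list; 12 genes lists are known for; and the 5 largest differences per direction from each line. Other list members, calls of the fit without SUZ12-AID, and voom calls were added after their values were seen. Positions are from GENCODE vM21 and promoters from RefSeq (GRCm38.p6). Promoter entries existed for 60.7% and 62.6% of the genes at least 1.25-fold above and below without overlap, under the 80% needed, so the planned comparison of CpG content was void. Alternatives were other pseudocounts, filters, scalings, weights, sample sets and a replicate block. Values of 2 list members are not reported here.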

Additional observations from a re-analysis of the deposited data

Results flagged for a closer look

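The genes below stand here because their auxin effect in MTF2-AID differed from that in SUZ12-AID, AID-JARID2 or both, by limma's test of the difference itself with an adjusted p under 0.05 over 14183 genes. Each value is the MTF2-AID effect minus that of the other line on the log2(TPM + 1) scale, so a negative value means a lower effect in MTF2-AID. They are given without explanation, and each line had 2 untreated and 2 auxin libraries.

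Among genes that passed in MTF2-AID itself, Psmb8, an immunoproteasome subunit, had a difference of 1.49 against AID-JARID2. The growth factor Fgf8 had 1.35, the insulin-like growth factor binder Igfbp3 0.67 and the epidermal protein gene Sprr2a2 2.12 against the same line. Krt8, a keratin of simple epithelia, had -0.23 against SUZ12-AID and 1.97 against AID-JARID2. The adhesion molecule Icam2 had -3.34 and -1.17, the blood progenitor integrin Itga2b -1.33 and -0.65, and the cell-cycle inhibitor Cdkn1a -1.24 and -1.32, SUZ12-AID first. The sparse transcripts among the calls followed, with Scarletltr at -1.14 against SUZ12-AID, Snora47 at 3.29 and 3.34, Mir183 at 2.02 and 2.02, and Mir1945 at 1.91 and 1.91.

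Among genes of endothelium and blood, the endothelial transcription factor Sox18 had -3.45 against SUZ12-AID and -1.58 against AID-JARID2, and the tight-junction gene Cldn5 -3.36 and -1.17. The embryonic globin Hbb-bh1 had 2.62 against SUZ12-AID. Anxa1, an annexin, had -3.65 and -2.79, and Pde2a, a cyclic nucleotide phosphodiesterase, -2.49 and -4.80.

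Among developmental regulators, the mesodermal factor Hand1 had 1.25 against SUZ12-AID and 4.26 against AID-JARID2, and Foxf1, a forkhead factor of lateral mesoderm, 0.94 and 4.50. The heart factor Nkx2-5 had -3.13 and the T-box factor Tbx15 -3.44 against SUZ12-AID. The caudal factors Cdx2 and Cdx4 had 1.35 and 3.63, and 2.29 and 4.76. Hoxb1 had 0.89 and 2.17, and Hoxb6 2.00 and 2.42. Cdkn2a, the Ink4a/Arf gene, had -3.95 and -0.86.

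Pluripotency and epiblast genes had lower effects in MTF2-AID than in AID-JARID2. Pou5f1, the gene of OCT4, had -2.21, the forkhead factor Foxd3 -4.30 and the embryonic stem cell Ras gene Eras -4.28. Sox2 had -1.28 against SUZ12-AID and -4.07 against AID-JARID2, and Utf1, a chromatin factor of pluripotent cells, -1.49 and -4.88. The imprinted genes H19 and Igf2 had 4.26 and 3.29 against AID-JARID2. The fibrillar collagen Col1a1 had 0.81 and 4.30, the myelin protein gene Pmp22 0.51 and 4.27, the claudin Cldn11 2.16 and 2.82, and the histone gene Hist1h2ag, whose transcripts are mostly not polyadenylated, 2.34 and 2.36.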

How the results depend on the processing

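The counts of 11 higher and 4 lower genes were sensitive to most choices. With a pseudocount of 0.1 they were 6 and 3, with a pseudocount of 5 they were 13 and 24, and with at least 5 TPM in 2 libraries 10 and 6. Without a filter they were 9 and 12, with median-of-ratios scaling 10 and 9, with quantile normalization 17 and 27. The 4 libraries alone gave 4 and 1, the fit without the SUZ12-AID line 48 and 56, and a variance weight per line 75 and 148. Voom gave 4 and 10, and at least 20 reads without short RNAs 17 and 29. These 2, and leaving out libraries of the other lines, were chosen after seeing the data. Leaving out 1 library at a time gave 3 to 20 higher and 1 to 29 lower, the highest without either untreated SUZ12-AID library. The cause was not tested. Intervals within 1.5-fold numbered 19734 with no filter (more genes tested), and groups without overlap 10102 to 11010 with 1 MTF2-AID library left out, where 1 library stands for its group.

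Against SUZ12-AID, 312 genes were higher and 1306 lower. The lower count was 770 with at least 5 TPM (fewer genes tested) and 852 with variance weights. The higher count was 742 with median-of-ratios scaling, 584 with quantile normalization and 182 with variance weights. Leaving out 1 library gave 126 to 1105 higher and 761 to 1769 lower.

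The replicate number as a block gave 4 higher and 2 lower, sharing 3 of the 15 calls; deviations of same-numbered MTF2-AID libraries correlated at -0.0441 across genes, so the numbers did not pair them, and with 2 pairs no further check was possible. Of 4425 values of 185 named genes over the alternatives, 0 called ones changed direction, 279 gained and 126 lost a call. EdgeR and DESeq2 were not run, since the deposited unit is TPM. With 2 libraries a group, differences under 1.5-fold could be bounded for 34.2% of genes under 5 TPM.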

Other observations

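WNT genes not described above stood more often higher than lower with auxin in MTF2-AID cells. Of 35 of 45 listed WNT ligands, receptors and antagonists, 15 had both auxin libraries above both untreated ones and 6 below, against 25.4% and 22.1% of all genes, at a median log2 difference of 0.067. The replicate SD of the list's median level, pooled over both groups, was 0.20 and so larger than that difference. Intervals within 1.5-fold were found for 19 of the 35, against 76.1% of all genes. None passed in limma on log2 TPM or in voom. At an unadjusted p under 0.05, 7 of the 35 were higher and 2 lower (636 and 770 of all 14183 genes). The ligand Wnt6 had 2.94 and 3.22 TPM untreated and 5.59 and 7.16 TPM with auxin (adjusted p = 0.131), and the secreted antagonist Frzb 9.40 and 8.87 TPM and 13.0 and 15.3 TPM (adjusted p = 0.131). The antagonist Dkk1 lay the other way, at 42.2 and 42.1 TPM and 31.1 and 35.3 TPM (adjusted p = 0.352). The WNT target Axin2 was level, at 57.9 and 59.3 TPM and 60.2 and 61.0 TPM, with an interval within 1.5-fold.

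Among FGF genes, the ligand Fgf8 rose and a pair of feedback inhibitors stood lower in both auxin libraries. The phosphatase gene Dusp6 had 197 and 191 TPM untreated and 161 and 151 TPM with auxin (log2 difference -0.31, adjusted p = 0.137), and Spry1, a sprouty inhibitor, 90.1 and 79.6 TPM and 71.2 and 69.4 TPM (log2 difference -0.27, adjusted p = 0.391). Neither passed, and both intervals lay within 1.5-fold. The receptor Fgfr1 had 178 and 185 TPM and 170 and 173 TPM (log2 difference -0.08). Of the 21 of 27 listed genes kept, 4 (19.05%) had auxin above and 9 (42.86%) below without overlap, against 25.4% and 22.1% of all genes.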
